A study of Homo sapiens with 12 samples.

Results

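The genes described here are the human matrix metalloproteinases (MMP), the ADAMTS metalloproteinases and the tissue inhibitors of metalloproteinases (TIMP), taken as every gene name of the deposited count table that is 1 of these stems and a number, with a closing A or B allowed for MMP. Rows with other endings, such as ADAMTS7P3 or MMP25-AS1, are not among them. They came to 47 of 60583 gene names, with 24 MMP, 19 ADAMTS and 4 TIMP genes. They were measured by RNA sequencing in cardiomyocytes derived from RUES2, an established human embryonic stem cell line. Cells at day 50 were kept for 3 days on electrospun fibre scaffolds. In the PEDOT group the scaffold was 9.75% PEDOT:PSS/PVA, a blend that holds a conductive polymer, and in the PVA group it was 8% PVA, which does not conduct. The series asked how the conductive substrate changes cardiac gene expression. Each scaffold had 3 biological replicates with 2 technical libraries each, which gave 12 libraries and, after the technical libraries were added up, 6 sums. The cells of both groups came from 1 cell line, and the labels do not say what separates the biological replicates, so a p-value here reflects the spread of these samples alone, which may be technical.

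Library totals ran between 19.12 M and 30.95 M counts, and the members took between 0.186% and 0.287% of the counts of a library. Cardiomyocyte markers were high in every sum, with a summed level of 70042, 91180 and 85716 CPM (counts scaled to library size) in PEDOT replicates 1, 2 and 3, and of 60524, 78449 and 81680 CPM in PVA replicates 1, 2 and 3. Fibroblast markers were present too, at 6766, 846 and 3628 CPM in the PEDOT sums and at 3703, 820 and 3230 CPM in the PVA sums. In such bulk samples fewer cells of a type and less RNA per cell cannot be told apart.

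MMPs are zinc-dependent enzymes that cut collagens, gelatin, laminins, growth factor stores and one another's proforms. They are made as inactive precursors, and several are opened by plasmin or by furin-type convertases. ADAMTS enzymes are secreted relatives that cut proteoglycans such as versican, trim procollagens, cleave von Willebrand factor or associate with fibrillin microfibrils. TIMPs bind the catalytic sites of these enzymes and block them, and the balance between enzyme and inhibitor is followed in the heart because collagen turnover accompanies remodelling and fibrosis.

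Per unit of transcript length, 1 membrane-type enzyme and 2 inhibitors had the highest means. MMP15 (MT2-MMP, a membrane-anchored protease), at chr16:58025754-58046901 of hg38, averaged 689 ± 74.1 TPM (counts scaled to transcript length and library size) on PEDOT and 705 ± 52.4 TPM on PVA (SD, n = 3 each). TIMP1, an inhibitor often made by stromal cells, averaged 442 ± 430 TPM on PEDOT and 449 ± 344 TPM on PVA. TIMP3, the inhibitor that binds to the matrix itself, averaged 331 ± 155 TPM on PEDOT and 372 ± 166 TPM on PVA. TIMP1 had an SD close to its mean on both scaffolds, so its place in this order belongs to some replicates only: in the 2 sums of replicate 1 it was above MMP15, with 922 against 772 TPM on PEDOT and 813 against 734 TPM on PVA, and in the other 4 sums it was below. In PEDOT replicate 2, TIMP1 was at 92.1 TPM, beside 92.7 TPM for ADAMTS9.

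The next members had lower means. ADAMTS14, a procollagen N-propeptidase, averaged 97.99 ± 12.6 TPM on PEDOT and 95.1 ± 27.1 TPM on PVA. ADAMTS9, a secreted versican-cleaving enzyme, averaged 90.5 ± 7.62 TPM on PEDOT and 101 ± 9.72 TPM on PVA, and these neighbours did not differ beyond their spread. MMP14 (MT1-MMP, an activator of MMP2) averaged 75.7 ± 50.1 TPM on PEDOT and 75.9 ± 45.0 TPM on PVA, TIMP2 60.5 ± 11.4 and 65.6 ± 15.0 TPM, and MMP1, the interstitial collagenase, 48.2 ± 38.7 and 68.7 ± 48.3 TPM. Of the 47 members, 27 had a mean of at least 1 TPM.

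**Figure D1:**
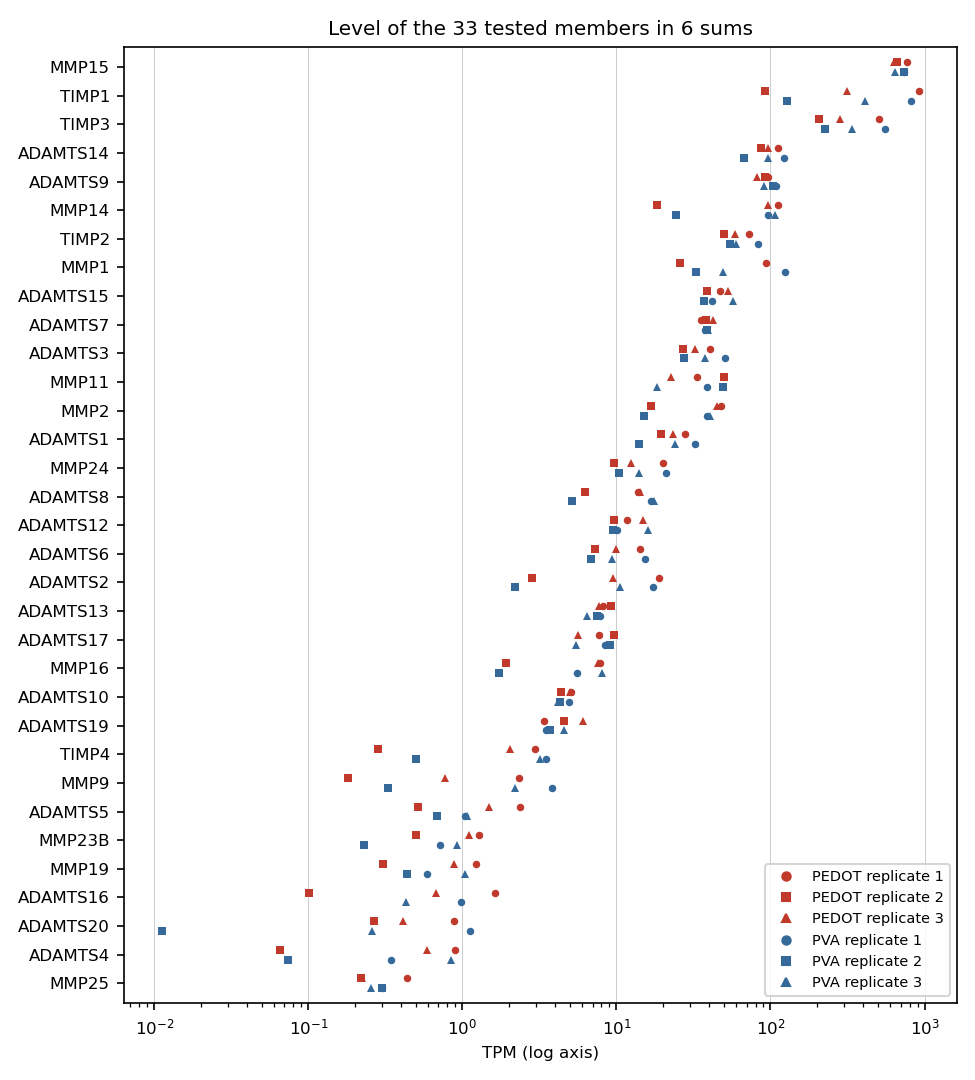
Level of each of the 33 tested members in TPM on a log axis, with 1 point per sum of technical libraries: red PEDOT, blue PVA, and circle, square and triangle for replicates 1, 2 and 3. ADAMTS16 in PVA replicate 2 had no count and is not drawn. MMP15 stays between 630 and 772 TPM in all 6 sums, while the squares of TIMP1, MMP14, ADAMTS2 and MMP9 lie far to the left of their circles.

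Low members made up the rest of the families. Of the 47 members, 33 passed the filter on low counts (11 MMP, 18 ADAMTS and 4 TIMP) and 14 did not. Under the filter were MMP28 with 143 counts over all 12 libraries, MMP10 with 68, MMP21 with 44, MMP17 with 40, MMP12 with 16, MMP3 and ADAMTS18 with 13 each, MMP20 with 12, MMP23A with 10, MMP7 with 5, and MMP8 and MMP27 with 4 each. MMP13 (collagenase 3) and MMP26 (matrilysin 2) had no count, and 3 counts of the total put a limit of 0.0101 CPM on each. MMP23A and MMP23B are near-copies of one another, so both values are uncertain, and so is ADAMTS7, whose pseudogene row ADAMTS7P3 held 5695 counts.

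On the long arm of chromosome 11, 9 MMP genes lie in a row at chr11:102520508-102955732, a span of 435.2 kb on hg38. This cluster holds collagenases, stromelysins, a matrilysin and the macrophage elastase MMP12. It gave 8172 counts in all, of which MMP1 had 8050 (98.5%) and the other 8 genes together 122, as counts not divided by length. Among neighbouring ADAMTS genes, ADAMTS8 and ADAMTS15, 20.4 kb apart on chromosome 11, averaged 12.3 and 45.7 TPM over the 6 sums, and ADAMTS1 and ADAMTS5, 72.5 kb apart on chromosome 21, averaged 23.5 and 1.19 TPM.

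Promoter sequence was at hand for 27 of the 47 members (RefSeq, GRCh38.p14; 250 bases before the annotated start). The following 5 are printed because they belong to the member of highest level (MMP15), to the 3 with the most counts among the members that were at least 4-fold lower in replicate 2 than in replicate 1 (TIMP1, MMP14 and ADAMTS2), and to a cluster gene that was nearly silent beside MMP1 (MMP10). They lie at chr16:58025504-58025753 on the plus strand, chrX:47582186-47582435 on the plus strand, chr14:22836335-22836584 on the plus strand, chr5:179345462-179345711 on the minus strand and chr11:102780629-102780878 on the minus strand, and are written 5′ to 3′ in the direction of the gene. Capitals mark the 3 motifs searched on both strands, which are the GC box (GGGCGG), the TATA box (TATAAA) and the AP-1 site (TGANTCA), where N is any base and overlapping GC boxes form 1 run.
MMP15: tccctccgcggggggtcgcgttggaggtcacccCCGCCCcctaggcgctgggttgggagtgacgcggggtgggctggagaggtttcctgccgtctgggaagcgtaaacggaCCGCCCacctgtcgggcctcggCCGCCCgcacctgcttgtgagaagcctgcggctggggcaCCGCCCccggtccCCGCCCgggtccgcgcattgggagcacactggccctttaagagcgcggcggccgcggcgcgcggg
TIMP1: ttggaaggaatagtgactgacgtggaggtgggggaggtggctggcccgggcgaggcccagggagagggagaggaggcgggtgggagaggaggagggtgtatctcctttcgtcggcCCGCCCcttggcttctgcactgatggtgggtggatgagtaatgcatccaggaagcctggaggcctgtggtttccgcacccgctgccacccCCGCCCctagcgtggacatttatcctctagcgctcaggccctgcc
MMP14: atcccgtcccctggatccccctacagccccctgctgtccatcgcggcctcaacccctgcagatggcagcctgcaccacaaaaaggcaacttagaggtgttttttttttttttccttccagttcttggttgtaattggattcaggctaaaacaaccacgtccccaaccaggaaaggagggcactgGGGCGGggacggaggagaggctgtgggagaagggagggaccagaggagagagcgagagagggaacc
ADAMTS2: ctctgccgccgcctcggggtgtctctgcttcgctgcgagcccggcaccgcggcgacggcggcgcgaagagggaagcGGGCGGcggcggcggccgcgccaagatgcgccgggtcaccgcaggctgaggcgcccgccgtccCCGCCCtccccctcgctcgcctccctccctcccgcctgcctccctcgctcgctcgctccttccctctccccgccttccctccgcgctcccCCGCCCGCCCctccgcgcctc
MMP10: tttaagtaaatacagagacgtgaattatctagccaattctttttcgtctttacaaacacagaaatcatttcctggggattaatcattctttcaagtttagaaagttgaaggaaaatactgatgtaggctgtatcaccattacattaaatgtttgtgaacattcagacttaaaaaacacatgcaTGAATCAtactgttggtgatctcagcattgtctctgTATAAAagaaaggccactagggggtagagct
MMP15 has 5 GC boxes in this window, TIMP1 2, MMP14 1 and ADAMTS2 4, while MMP10 has none. MMP10 carries a TATA box 31 bases and a match to the AP-1 pattern (TGAATCA) 67 bases upstream of the start.

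A GC box was in 19 of the 27 members (70.4%), and in 42.3% of all 27305 promoters of that length. Of the 27 members 19 were tested, and 18 of these held one, the exception being ADAMTS6. The tested members are those that passed the filter on low counts, and the share among other genes that passed it was not examined. The 5 promoters of the chromosome 11 cluster that were at hand (MMP7, MMP8, MMP10, MMP20 and MMP27) held no GC box. Their G and C content was 32.8% to 41.6% (median 34.4%). It was 52.4% to 80.8% (median 72.4%) in the 19 tested members, and 0.4% to 96.4% (median 58%) over all promoters. The AP-1 pattern TGANTCA was in MMP7, MMP10, MMP20 and ADAMTS12, 4 of 27 members, and in 6.60% of all promoters. The letters were TGAGTCA in MMP7 and TGAATCA in MMP10, MMP20 and ADAMTS12. TATAAA was in 7 of 27 members and in 11.1% of all promoters. A match says only that the letters are present in the window. The promoters of MMP1, MMP2, MMP9 and the other members without an entry were not examined.

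For the scaffold, no member was called. With the scaffold as the only term, edgeR's quasi-likelihood test called 0 of 21298 genes (0%) and 0 of 33 members at an adjusted p of 0.05, and at an unadjusted p under 0.05 it counted 190 genes (0.892%) and 0 members. DESeq2 called 0 genes and 0 members. The log2 fold changes of the members, PEDOT over PVA, lay between -0.91 for MMP9 and 0.81 for ADAMTS16, with a median of 0.03, beside -0.01 over all genes tested. The lowest adjusted p of a member was 1.0.

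Same-numbered sums deviated together, so a second fit with the replicate number as a term (the block) was read beside it. It called 57 genes (0.268%), 15 higher on PEDOT (0.0704%) and 42 lower (0.197%), and 0 members. At an unadjusted p under 0.05 it counted 8 members against 8.32% of all genes, 3 of them higher on PEDOT (3.93% of all genes) and 5 lower (4.38%), and the median of the members was 0.05, beside 0.00 for all genes tested.

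MMP1 came nearest to a call. This enzyme cuts the triple helix of fibrillar collagens. It stood at 41.7, 13.1 and 12.5 CPM in PEDOT replicates 1, 2 and 3, and at 53.4, 16.6 and 24.2 CPM in PVA replicates 1, 2 and 3. The PEDOT value was the lower one in 3 of 3 same-numbered pairs, although the groups overlapped because replicate 1 was far above the others on both scaffolds. The difference was -0.48 ± 0.60 (log2, SE; adjusted p = 1.0) without the block and -0.54 ± 0.11 (adjusted p = 0.057) with it. With the block the adjusted p was 0.00263 when replicate number 1 was left out, 0.0133 without PEDOT replicate 2 library 2, 0.0329 without PVA replicate 2 library 2, 0.0055 by DESeq2 and 1.42e-06 with no filter on low counts, and over all settings with the block it ran from 1.42e-06 to 0.502. In the fit with no filter on low counts the log2 difference was also -0.54. That fit gave the spread shared over genes an infinite weight (prior degrees of freedom), against 11.96 in the main fit with the block. MMP1 is also among the members whose technical libraries differed most, and in PEDOT replicate 2 they held 9.23 and 17.3 CPM.

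MMP9 (gelatinase B) was low, with 1.25, 0.108 and 0.447 CPM on PEDOT and 1.97, 0.196 and 1.27 CPM on PVA in replicates 1, 2 and 3. Its PEDOT value was the lower one in 3 of 3 pairs. The log2 difference was -0.91 ± 0.95 without the block and -0.99 ± 0.29 with it (adjusted p = 0.278), and the difference with the block passed the threshold in 1 setting, the one with no filter on low counts (adjusted p = 0.0376). That setting is the fit with the infinite weight described for MMP1. Only 265 counts over 12 libraries lay behind MMP9.

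MMP2 (gelatinase A, activated at the cell surface by MMP14) went the other way, with 51.3, 20.1 and 52.3 CPM on PEDOT and 40.1, 18.3 and 47.5 CPM on PVA. PEDOT was above PVA in 3 of 3 pairs, with a log2 difference of 0.21 ± 0.07 under the block (adjusted p = 0.398) and of 0.23 ± 0.45 without it, and MMP2 was not called in any setting tried. A small part of the MMP2 exons (174 of 4706 bases) overlaps another gene on that strand. Fibroblast markers were also higher in the PEDOT sum of each pair, at 6766, 846 and 3628 CPM on PEDOT and 3703, 820 and 3230 CPM on PVA. Of these markers 9 of 10 were above 0 in log2 fold change, none was called, and none was without a count. Cardiomyocyte markers were higher in the PEDOT sum of each pair too. Of those markers 11 of 12 were above 0 without the block (median 0.20), and 1 was called with it. The part of either list in the MMP2 values was not tested.

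ADAMTS16 had 2.17, 0.151 and 0.979 CPM on PEDOT and 1.26, 0 and 0.627 CPM on PVA, a log2 difference of 0.88 ± 0.35 with the block (adjusted p = 0.504). ADAMTS5 (aggrecanase-2) had 5.23, 1.29 and 3.6 CPM on PEDOT and 2.23, 1.72 and 2.60 CPM on PVA, a log2 difference of 0.63 ± 0.48 without the block. Values of MMP23B were 0.642, 0.28 and 0.596 CPM on PEDOT and 0.346, 0.131 and 0.501 CPM on PVA. None of the 3 was called, and PEDOT was the higher one in 3 of 3 pairs for ADAMTS16 and MMP23B and in 2 of 3 for ADAMTS5.

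ADAMTS9 stood at 235, 253 and 216 CPM on PEDOT and at 256, 284 and 239 CPM on PVA, lower on PEDOT in 3 of 3 pairs, with a log2 difference of -0.15 ± 0.06 with the block (adjusted p = 0.556). ADAMTS3, another procollagen N-propeptidase, had 64.4, 48.2 and 55.7 CPM on PEDOT and 77.5, 49.0 and 65.6 CPM on PVA, a log2 difference of -0.18 ± 0.07 with the block (adjusted p = 0.495). TIMP3 had 528, 242 and 320 CPM on PEDOT and 558, 267 and 385 CPM on PVA, a log2 difference of -0.16 ± 0.07 with the block (adjusted p = 0.537). All 3 were lower on PEDOT in every pair and none was called. The summed level of smooth muscle and pericyte markers was also lower on PEDOT in each pair. It was 1937, 1059 and 1495 CPM on PEDOT and 2263, 1339 and 1959 CPM on PVA. The list did not go 1 way, as 4 of its 8 markers were above 0 in log2 fold change without the block. Their median was 0.02 without the block and -0.00 with it. With the block, 0.197% of all genes were called lower. Of these 8 markers 2 were called lower with the block, ACTA2 (log2 -0.40 ± 0.07, adjusted p = 0.0334) and RGS5 (log2 -0.46 ± 0.06, adjusted p = 0.00795), and none of the 8 was without a count; their part in the values of members lower on PEDOT was not tested.

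Small shifts the other way were seen for 3 ADAMTS genes. ADAMTS13, the von Willebrand factor protease, had 10.6, 13.5 and 10.9 CPM on PEDOT and 9.83, 10.96 and 9.15 CPM on PVA, a log2 difference of 0.22 ± 0.15 without the block. ADAMTS19 had 4.15, 6.33 and 8.00 CPM on PEDOT and 4.14, 5.09 and 6.12 CPM on PVA, a log2 difference of 0.27 ± 0.28 without the block. ADAMTS10, a fibrillin-binding member, had 6.61, 6.33 and 7.04 CPM on PEDOT and 6.19, 6.26 and 5.93 CPM on PVA. Its PEDOT values were all above its PVA values, and it was the 1 member of 33 whose sums did not overlap, where 2.28% of all genes had PEDOT sums all above, 2.31% had them all below, and 4.6% did not overlap either way.

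In 14 of 33 members all pairs had 1 direction (28.9% of all genes). PEDOT was higher in 3 of 3 pairs for 6 members (13.3% of all genes) and lower in 3 of 3 for 8 members (15.6% of all genes). MMP15, the member of highest level, did neither, with 744, 719 and 657 CPM on PEDOT and 681, 798 and 676 CPM on PVA, and a log2 difference of -0.02 ± 0.07 with the block. No TIMP was called, and TIMP2, TIMP3 and TIMP4 were lower on PEDOT in 3 of 3 pairs and TIMP1 in 2 of 3.

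**Figure D2:**
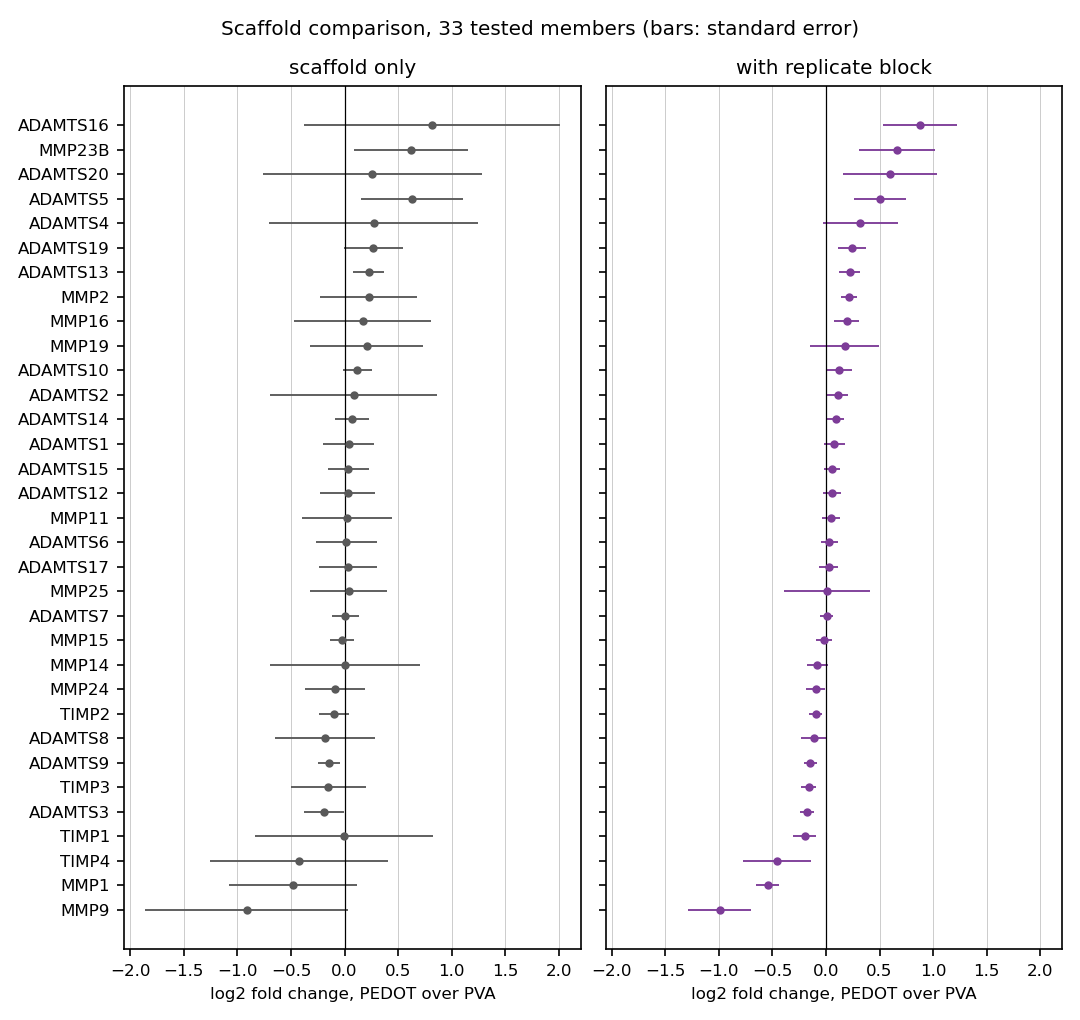
Log2 fold change of PEDOT over PVA for the 33 tested members, with the standard error as a bar, from the fit with the scaffold alone (left) and the fit that adds the block (right). The bars of members such as MMP1 and TIMP1 shorten with the block, and no member is called in either.

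**Figure D3:**
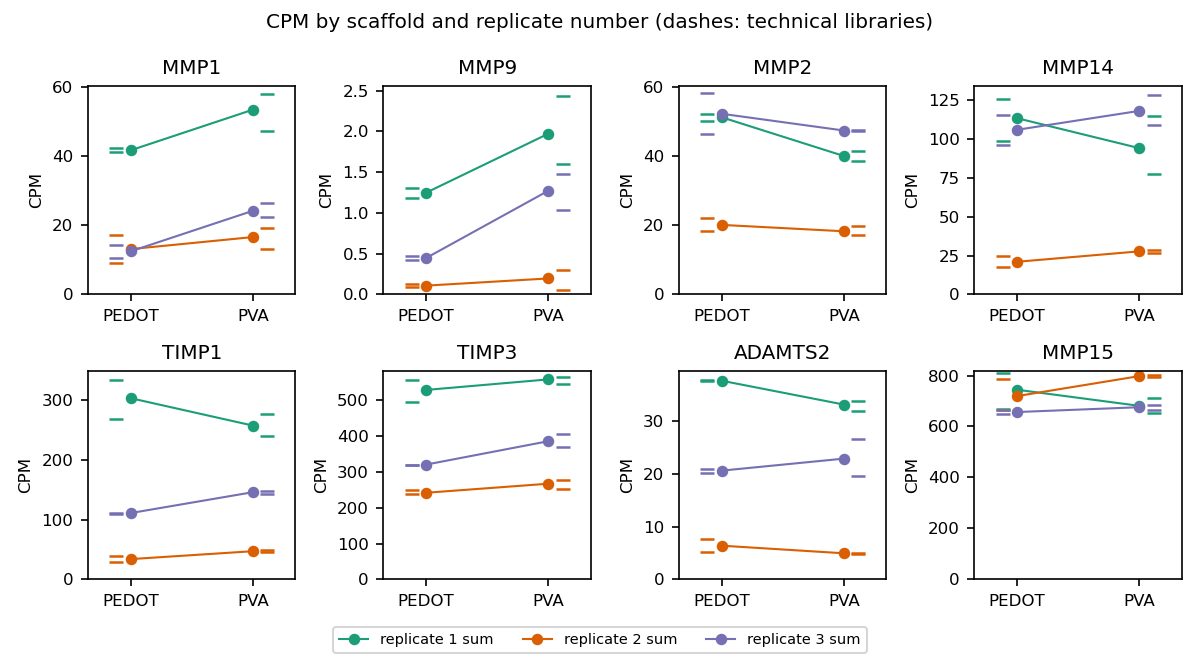
CPM of 8 members on PEDOT (left of each panel) and PVA (right), with 1 line per replicate number joining the sums and dashes for the technical libraries. MMP1 and MMP9 are lower and MMP2 is higher on PEDOT in 3 of 3 pairs, and replicate 2 is the lowest line in the panels of MMP9, MMP2, MMP14, TIMP1, TIMP3 and ADAMTS2.

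More members were called for the replicate number than for the scaffold. With the scaffold as a term, an F test of the replicate number called 27 of 33 members, against 6776 of 21298 genes (31.8%). Of the 6 not called, MMP15 had an adjusted p of 0.261, ADAMTS9 0.0707 and ADAMTS10 0.978, and the others were ADAMTS13, MMP23B and MMP25. ADAMTS9 was called lower in the contrast of replicate 3 over 2 (log2 -0.24 ± 0.08, adjusted p = 0.0425). MMP23B, with 126 counts in all, was called higher in that contrast (log2 1.45 ± 0.46, adjusted p = 0.0404). In replicate 2 over 1, 24 members were called (28.9% of all genes either way), 20 lower (15.7%) and 4 higher (13.3%). In replicate 3 over 1, 13 were called (13.2%), 9 lower (6.42%) and 4 higher (6.79%). In replicate 3 over 2, 23 were called (19.4%), 20 higher (11.9%) and 3 lower (7.57%). Some of these calls were close to the threshold. ADAMTS19 was called higher in 2 over 1 (log2 0.46 ± 0.16, adjusted p = 0.0485), a call lost in 11 of 13 other settings. TIMP2 was called lower in 3 over 1 (log2 -0.25 ± 0.08, adjusted p = 0.0491), a call lost in 9 of 13. The members' median log2 difference was -0.87 for 2 over 1, -0.18 for 3 over 1 and 0.47 for 3 over 2, beside -0.00, -0.01 and -0.00 for all genes tested.

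All 4 TIMPs were called lower in replicate 2 than in replicate 1. TIMP1 had 34.1 CPM on PEDOT and 47.3 on PVA in replicate 2, 304 and 258 in replicate 1, and 111 and 146 in replicate 3. Replicate 2 was thus lowest and replicate 1 highest on both scaffolds, with no overlap between replicate numbers, and TIMP1 was 7.02-fold lower in replicate 2 than in replicate 1 (log2 -2.81 ± 0.14, adjusted p = 3.19e-09). TIMP3 had 242 and 267 CPM in replicate 2, 528 and 558 in replicate 1, and 320 and 385 in replicate 3, and its log2 difference of 2 over 1 was -1.10 ± 0.08. TIMP2, an inhibitor that also helps MMP14 to activate MMP2, was the steadiest of the 4, at 72.0 and 79.0 CPM in replicate 2 and 93.2 and 102 in replicate 1 (log2 -0.37 ± 0.08, adjusted p = 0.0021). TIMP4, the inhibitor known for its expression in heart, had only 178 counts in all, and its log2 difference of 2 over 1 was -2.85 ± 0.46. TIMP transcripts made up 49.3%, 23.3% and 34.4% of the members' summed TPM in PEDOT replicates 1, 2 and 3, and 48.4%, 25.3% and 38.2% in PVA replicates 1, 2 and 3.

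TIMP1, TIMP3 and TIMP4 each lie within an intron of a synapsin gene, and the synapsin rows were low (SYN1 4.00, SYN3 1.74 and SYN2 3.24 CPM on average), with counting by strand.

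Membrane-type MMPs split. MMP14 had 21.04 CPM on PEDOT and 27.8 on PVA in replicate 2, 114 and 94.3 in replicate 1, and 106 and 118 in replicate 3, so replicate 2 alone was low, 4.29-fold below replicate 1 (log2 -2.10 ± 0.12, adjusted p = 1.79e-08). MMP16 (MT3-MMP) had 5.90 and 5.35 CPM in replicate 2 against 21.6 and 14.7 in replicate 1, a log2 difference of -1.68 ± 0.15. MMP24 (MT5-MMP) fell less, to 10.9 and 11.6 CPM in replicate 2 against 20.0 and 20.3 in replicate 1 (log2 -0.84 ± 0.11). MMP15 stood at 719 and 798 CPM in replicate 2, 744 and 681 in replicate 1 and 657 and 676 in replicate 3 and was not called, with a log2 difference of 2 over 1 of 0.09 ± 0.09. MMP25 had 88 counts in all and was not called.

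Both gelatinases were lower in replicate 2. MMP2 had 20.1 and 18.3 CPM in replicate 2 and 51.3 and 40.1 in replicate 1, a log2 difference of -1.24 ± 0.09, and in replicate 3 it was back at 52.3 and 47.5 CPM. For MMP9, 5 and 9 counts on PEDOT and PVA lay behind replicate 2, and its log2 difference of 2 over 1 was -3.42 ± 0.41 (adjusted p = 1.94e-05). MMP1 differed from them, since both other replicates were below replicate 1, by -1.68 ± 0.13 in replicate 2 and by -1.42 ± 0.13 in replicate 3 (adjusted p = 5.73e-06).

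MMP11 (stromelysin-3, opened by furin inside the cell) was the 1 MMP called higher in 2 over 1. It had 65.8 and 64.8 CPM in replicate 2, 39.4 and 43.8 in replicate 1, and 28.6 and 23.5 in replicate 3, with log2 differences of 0.65 ± 0.10 for 2 over 1 and -0.68 ± 0.10 for 3 over 1, where MMP1 and MMP24 were called lower too. MMP28 (epilysin), under the filter and not tested, had no count in the 4 libraries of replicate 2, 19 to 49 counts in each library of replicate 1 and 4 to 6 in each of replicate 3.

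Procollagen N-propeptidases were lower in replicate 2, all 3 of them called. ADAMTS2, the main enzyme of type I procollagen, fell to 6.38 CPM on PEDOT and 4.94 on PVA in replicate 2, against 37.5 and 33.05 in replicate 1, which was 6.25-fold lower (log2 -2.64 ± 0.13, adjusted p = 2.85e-09), and in replicate 3 it was at 20.6 and 22.8. ADAMTS3 had a log2 difference of -0.54 ± 0.08. ADAMTS14, the highest of the group, had 123 and 96.2 CPM in replicate 2 and 141 and 149 in replicate 1 (log2 -0.41 ± 0.10, adjusted p = 0.00582); without PVA replicate 2 it was -0.20 and not called.

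Among the 7 proteoglycanases, 5 were called lower in 2 over 1. ADAMTS8 had 6.63 and 5.48 CPM in replicate 2 and 12.9 and 15.3 in replicate 1, a log2 difference of -1.21 ± 0.14. ADAMTS1, which cuts versican, had 35.2 and 25.5 CPM in replicate 2 and 44.7 and 49.8 in replicate 1 (log2 -0.64 ± 0.12), and this became -0.35 without PVA replicate 2. ADAMTS4 (aggrecanase-1) had 8 and 9 counts in replicate 2 and a log2 difference of -2.93 ± 0.50, or -1.85 without PEDOT replicate 1. ADAMTS5 had a log2 difference of -1.23 ± 0.30, which was no longer called without PEDOT replicate 1 (-0.60) or PEDOT replicate 2 (-0.59). ADAMTS20 had a log2 difference of -2.74 ± 0.56 that depended on which replicate 2 sum was kept (-6.06 on PVA alone, with 1 count, and -1.71 on PEDOT alone). ADAMTS9 was not called for 2 over 1 (log2 0.13 ± 0.08), and its neighbour in the list ADAMTS15 was called higher in 3 over 2 (log2 0.49 ± 0.09) and in 3 over 1 (log2 0.45 ± 0.09), at 73.5 and 80.4 CPM in replicate 3 and 61.0 and 52.0 in replicate 1; without PVA replicate 3 the difference of 3 over 1 was 0.31 and not called.

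The COMP-cleaving pair was not lower in replicate 2. ADAMTS12 had 35.3 and 38.3 CPM in replicate 3 and 25.8 and 21.4 in replicate 1 (log2 0.65 ± 0.10, adjusted p = 0.000776), with replicate 2 at 23.6 and 23.3. ADAMTS7 had 75.1 and 77.1 CPM in replicate 2 and 62.5 and 64.4 in replicate 1 (log2 0.26 ± 0.08), a call lost without PEDOT replicate 1 or PVA replicate 2.

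Fibrillin-associated members went both ways. ADAMTS6 had 15.96 and 14.9 CPM in replicate 2 and 27.7 and 28.9 in replicate 1 (log2 -0.87 ± 0.10). ADAMTS17 was higher in replicate 2, at 20.8 and 19.5 CPM against 14.8 and 15.5 in replicate 1 (log2 0.42 ± 0.11), and lower in replicate 3, at 11.7 and 11.4 (log2 -0.39 ± 0.11). Both calls of ADAMTS17 were lost when some sums were left out, the first at 0.36 without PEDOT replicate 1 and the second at -0.32 without PVA replicate 1. ADAMTS19 was highest in replicate 3, with a log2 difference of 3 over 1 of 0.76 ± 0.16, which was 0.65 and not called without PEDOT replicate 3. ADAMTS16 had 7 counts on PEDOT and 0 on PVA in replicate 2, and its fitted log2 difference of -4.49 ± 0.53 became -9.0 without PEDOT replicate 2, when no count was left in that replicate, so the size of this fold is not defined by the data. MMP19 was called by the F test (adjusted p = 0.0488) but in none of the contrasts with replicate 1. It was called higher in replicate 3 over 2 (log2 1.32 ± 0.40, adjusted p = 0.0333). Its call by the F test was lost in 8 of the 13 other settings in which it was tested.

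**Figure D4:**
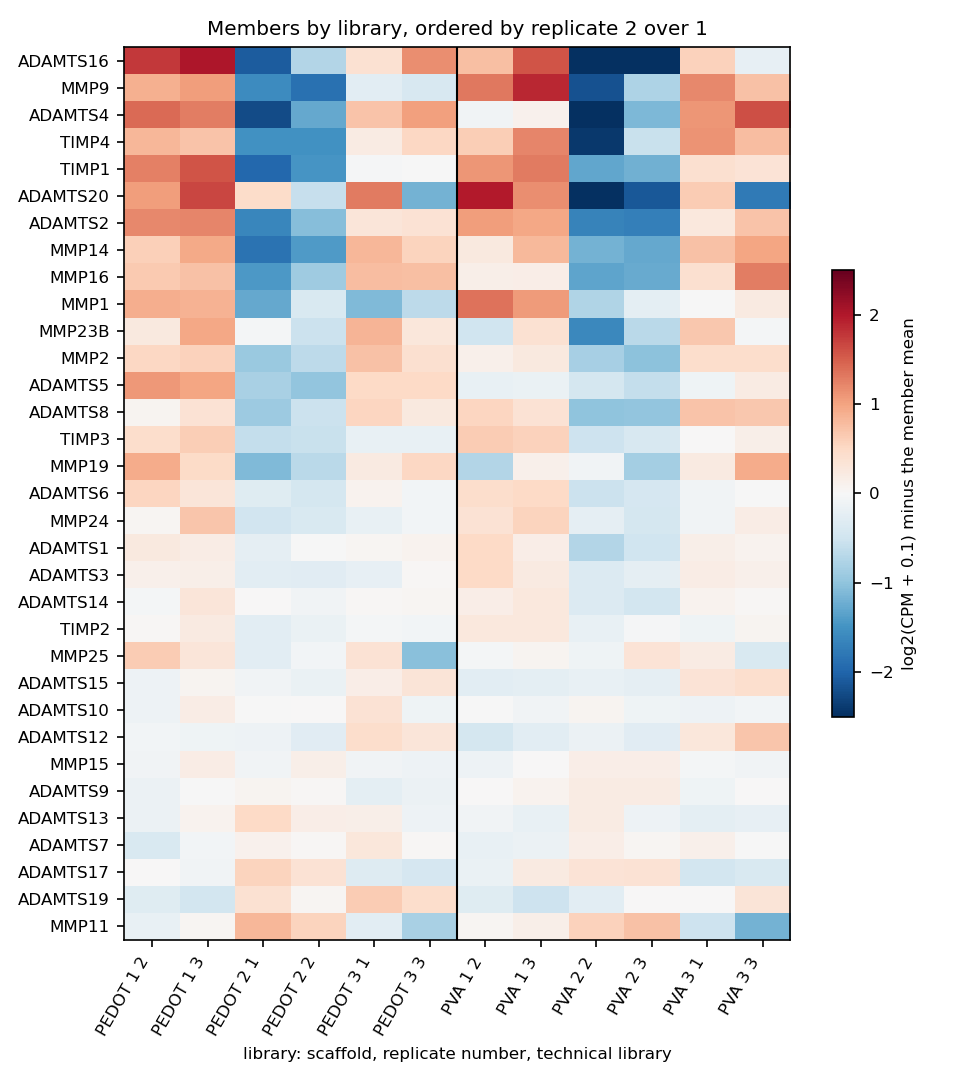
Each tested member in each of the 12 libraries, PEDOT left of the line and PVA right of it, as log2(CPM + 0.1) minus the mean of the member, with members ordered by their log2 difference of replicate 2 over 1 and colours ending at 2.5 in either direction. The 4 libraries of replicate 2 are blue in the upper rows on both scaffolds, and MMP11 at the bottom is red there.

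Fibroblast and smooth muscle markers moved with the replicate numbers. In 2 over 1, where 15.7% of all genes were called lower and 13.3% higher, 7 of 10 fibroblast markers were called lower and 1, POSTN, higher, with a median log2 difference of -2.40; their summed level was 846 CPM on PEDOT and 820 on PVA in replicate 2 and 6766 and 3703 CPM in replicate 1. All 8 smooth muscle and pericyte markers were called lower (median -1.0), at a summed 1059 and 1339 CPM in replicate 2 and 1937 and 2263 CPM in replicate 1. Of 12 cardiomyocyte markers, 8 were called higher in replicate 2 and 2 lower (median 0.38). Epicardial markers were lower for 4 of 6 tested and higher for 1 (median -1.01). Of 8 endothelial markers 2 were called lower and 0 higher, a count near the share of all genes. Their median was -0.90, however, beside -0.00 for all genes tested. Among 4 tested endoderm and hepatocyte markers 2 were lower and 2 higher (median -1.35). The same counts held for 5 tested cartilage and tendon markers (median 0.25). Of 7 macrophage and leukocyte markers 5 were under the filter. None of the marker lists held a gene without a count in the table. The part of these markers in the members' differences between replicate numbers was not tested.

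**Figure D5:**
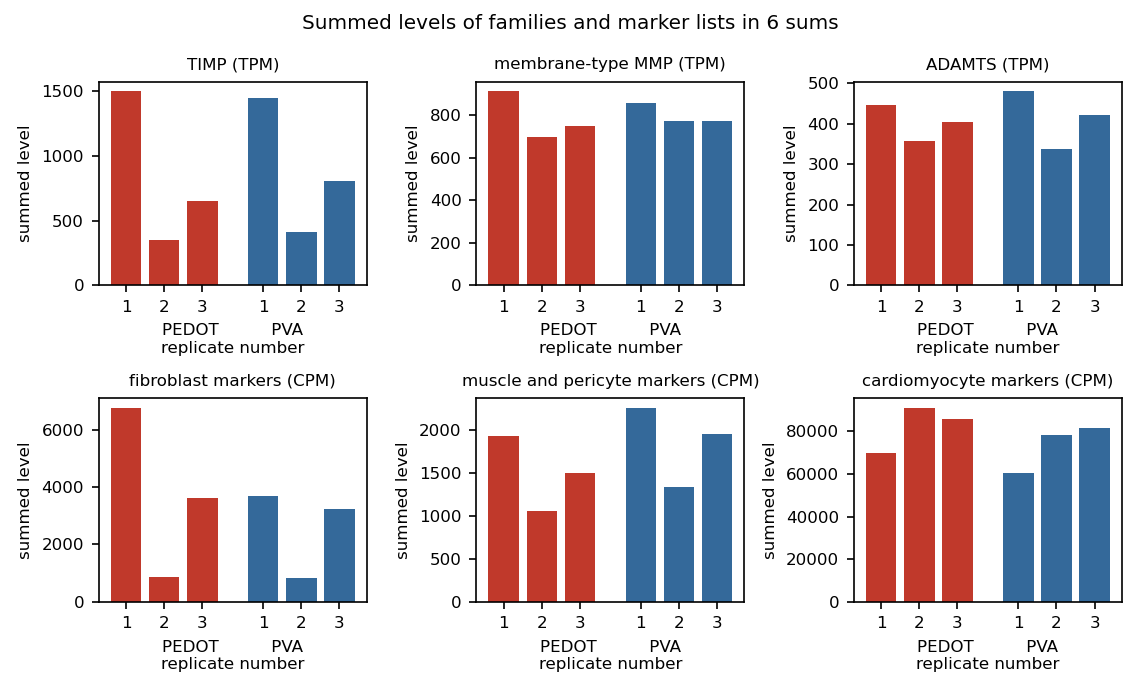
Summed level in each of the 6 sums, red PEDOT and blue PVA, with replicate numbers under the bars: TPM of the 4 TIMPs, the 6 membrane-type MMPs and the 19 ADAMTS genes in the upper row, and CPM of fibroblast, smooth muscle and pericyte, and cardiomyocyte markers in the lower row. TIMP falls to 348 TPM on PEDOT and 409 on PVA in replicate 2, the replicate with the lowest fibroblast bars. The sum of membrane-type MMPs stays between 696 and 913 TPM, and MMP15 alone gives 630 to 772 TPM of it. MMP14, MMP16 and MMP24 of that class were called lower in 2 over 1.

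In the wider protease network no listed gene was called for the scaffold, with or without the block, and the counts for the replicate number stand beside 31.8% of all genes called by the F test, and 15.7% called lower and 13.3% higher in 2 over 1. In the plasmin system, whose protease opens several MMP precursors, 6 of 7 tested genes were called by the F test, and all 6 were lower in 2 over 1. PLAU, the urokinase that makes plasmin, had 56.3, 11.1 and 11.8 CPM on PEDOT and 64.6, 15.8 and 24.6 CPM on PVA in replicates 1, 2 and 3, so both other replicates were below replicate 1, as for MMP1. Its scaffold difference with the block was -0.57 ± 0.12 (adjusted p = 0.0863). PLAUR, the urokinase receptor, had a log2 scaffold difference of -0.34 ± 0.08 with the block (adjusted p = 0.152), SERPINE2 one of 0.56 ± 0.18 (adjusted p = 0.348) and SERPINB2 one of -1.04 ± 0.36 (adjusted p = 0.412).

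Among other inhibitors and receptors, all 9 were called by the F test and 8 were lower in 2 over 1. RECK, a membrane-bound MMP inhibitor, had a log2 difference of 2 over 1 of -0.62, and CD44, a docking receptor for MMP9, one of -2.55. The scaffold values with the block were -0.47 ± 0.10 for THBS1 (adjusted p = 0.086), 0.19 ± 0.07 for LRP1, the receptor that clears several MMPs (adjusted p = 0.404), and -0.08 ± 0.07 for BSG, an inducer of MMPs (adjusted p = 0.835).

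Of 4 proprotein convertases, 3 were called by the F test. FURIN was higher in 2 over 1 (log2 0.61), while PCSK6 was lower (log2 -2.81) and had a scaffold difference of 0.60 ± 0.13 with the block (adjusted p = 0.0795), and PCSK5 one of -0.19 ± 0.11 (adjusted p = 0.712). PCSK7 was not called for the replicate number. ADAMTS-like genes, which lack the protease domain, gave 3 of 7 by the F test, near the share of all genes, and ADAM proteases 5 of 9. In the fit without the block, ADAMTSL5, ADAMTSL4 and ADAMTSL2 had the smallest scaffold p of the first list. ADAM28, ADAM17 and ADAM10 had the smallest of the second. With the block, the log2 differences were 0.27 ± 0.12, 0.12 ± 0.07 and -0.20 ± 0.10 for the first 3. For ADAM28, ADAM17 and ADAM10 they were 0.48 ± 0.33, -0.07 ± 0.07 and -0.06 ± 0.06.

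Of 19 tested substrates 16 were called by the F test, 12 lower and 4 higher in 2 over 1. DCN, a small collagen-binding proteoglycan, had 39.0, 2.37 and 8.90 CPM on PEDOT and 15.4, 2.22 and 5.44 CPM on PVA and a scaffold difference of 0.85 ± 0.17 with the block (adjusted p = 0.057). FBN1 had one of 0.42 ± 0.13 (adjusted p = 0.325) and NID1 one of -0.23 ± 0.06 (adjusted p = 0.228). DCN and 3 collagens of this list are fibroblast markers too. VCAN, the versican cut by several ADAMTS enzymes, had 46.6 and 59.4 CPM in replicate 2 against 248 and 176 in replicate 1. Of 17 tested inducers 14 were called by the F test, 9 lower and 2 higher in 2 over 1. JUNB, an AP-1 subunit, had a scaffold difference with the block of -0.28 ± 0.07 (adjusted p = 0.138), FOSL1 one of -0.25 ± 0.20 and IL6 one of 0.55 ± 0.53.

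Technical libraries of a replicate differed by less than replicate numbers did for most members. For the 26 members with a mean of at least 1 CPM, the median absolute log2 ratio between the technical libraries of a replicate was 0.106 to 0.193, beside 0.121 to 0.141 for all genes at that level. ADAMTS4, MMP1, MMP14, MMP11 and ADAMTS19 had the largest median ratios. ADAMTS4 differed up to 5.99-fold, in PVA replicate 2, where the libraries held 1 and 8 counts. MMP14 differed up to 1.48-fold, in PVA replicate 1, with 77.7 and 115 CPM. MMP11 differed up to 1.57-fold, in PVA replicate 3, with 28.3 and 17.97 CPM, and ADAMTS19 up to 1.26-fold. Below that level, ADAMTS20 had 32 and 4 counts in the technical libraries of PEDOT replicate 3 and 25 and 2 in those of PVA replicate 3. MMP1 differed up to 1.87-fold in PEDOT replicate 2, a log2 ratio of 0.90, beside a scaffold difference of -0.54 with the block.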

How the data were processed

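Cells were lifted with trypsin, RNA was isolated with QIAzol and RNeasy, and ribosomal RNA was removed before library preparation, per the labels' protocols. The authors deposited unnormalized counts of read pairs by gene name, made with featureCounts 2.0.1 (paired, reversely stranded) on GENCODE 33, per the file headers; the command sets no option for reads that match several places. STAR and hg38 are named in the submitters' processing notes, and the aligner's version is not given in the sources used here. All 12 columns were matched to samples by name.

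Technical libraries were added up to 6 sums; the libraries of a replicate differed beyond sampling noise (chi-square per gene 5.32 to 12.9). Genes were kept with filterByExpr (minimum count 10, minimum total 15), and 21298 remained. TMM scaling was followed by a test with glmQLFit and glmQLFTest of edgeR 4.0.16 in R 4.3.3 (two-sided, Benjamini-Hochberg over all genes kept, threshold 0.05). The scaffold was the only term, and the fit with the block added the replicate number. The replicate number was tested with the scaffold as a term, on 2 sums a number. SE is the log2 fold change over the square root of F. CPM is per effective library size after TMM. TPM was computed from the counts and the deposited exonic lengths, and levels of different genes were compared in it, apart from counts within the chromosome 11 cluster. The limit for members with no count covers counting error only.

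Across genes, departures from the scaffold mean correlated between same-numbered sums at 0.678, 0.703 and 0.503, and between differently numbered sums at -0.609 to -0.005. Departures within a scaffold add up to 0, so the negative values follow largely from the positive ones and are no separate evidence. Every same-numbered pair was over 0.1, so the numbers were taken to pair the samples. This rests on the values, as no label says that a number marks a shared culture.

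Members and lists were chosen with earlier results of these data known, although the rule for members uses names alone. Named members are those called, the 6 of smallest scaffold p in each fit, the 2 of highest level in each subfamily, all TIMPs and the 5 whose technical libraries differed most. Listed genes are the up to 3 of smallest scaffold p without the block, and a few others were named for their role after their values were seen. ADAMTSL6 was not matched under that name. The procedures were tested on simulated data. Alternatives were DESeq2 1.42.0, other scalings, other filters, technical libraries alone or as samples, and leaving out samples; those run on top of the block were chosen after the data were seen.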

Additional observations from a re-analysis of the deposited data

Results flagged for a closer look

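Among the 6 libraries of each scaffold, the highest or lowest library stood far from the others (by Dixon's criterion) in 3 of 52 groups of values examined. For independent values chance alone gives about 1 in 20 such groups. The 6 libraries are 3 biological replicates with 2 technical libraries each and are not independent, so that rate does not apply here. ADAMTS14 had 157 CPM in PEDOT replicate 1 library 3, where the nearest PEDOT library had 132 CPM and the lowest 121 CPM. MMP24 had 24.0 CPM in that library, where the nearest had 15.3 CPM and the lowest 10.6 CPM. ADAMTS13 had 12.4 CPM in PVA replicate 2 library 2, where the nearest PVA library had 10.1 CPM and the lowest 9.07 CPM.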

How the results depend on the processing

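Without the block, 0 genes and 0 members were called in each of the other settings tried. The block is the exception for genes, with 57. With the block, the number of genes called was 194 with 12 libraries as samples, 37 with library size only, 1 with upper-quartile scaling, 389 with every gene that had a count, 1 at a minimum mean of 5 CPM, 16 and 4 using the lower- and the higher-numbered technical libraries alone, and 97 by DESeq2. Leaving out replicate numbers or single libraries gave 4 (without PEDOT replicate 1 library 3) to 284 genes (without replicate number 3). Members called with the block were 2 (MMP1 and MMP9) with every gene that had a count, 1 (MMP1) by DESeq2, and 0 to 2 when replicate numbers or libraries were left out, the 2 being MMP1 and TIMP1 (log2 -0.43) without replicate number 1. The causes were not tested.

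Without the block, the scaffold difference turned its sign when 1 sum was left out for 4 of the members named for it. Over these fits MMP1 ran from -1.29 (without PEDOT replicate 1) to 0.14 (without PVA replicate 1), MMP2 from -0.084 to 0.55, ADAMTS16 from -0.15 to 1.76 and TIMP3 from -0.52 to 0.15. With the block the sign turned for none of the 11 members named for their scaffold p. A fit that drops 1 sum leaves that replicate number unpaired.

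For the replicate number, 4538 to 7702 genes and 21 to 30 members were called, 15 of the 27 members were called in all 14 other settings, and 4 (ADAMTS4, ADAMTS16, MMP9 and TIMP4) in the 13 in which they passed the filter. The other 8 were ADAMTS1, ADAMTS5, ADAMTS7, ADAMTS14, ADAMTS15, ADAMTS19, ADAMTS20 and MMP19. ADAMTS9 and MMP23B were called in some. Of 37 called contrasts with replicate 1, 22 were called in every setting tried and 0 turned. In replicate 2, ADAMTS4, ADAMTS16, MMP9 and TIMP4 had between 0 and 8 counts in a library, so the size of their differences from it is imprecise.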
